A study of Homo sapiens with 4 samples.

Results

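The axon guidance ligands and receptors are the semaphorins, ephrins, netrins and slits, and the plexins, neuropilins, Eph receptors, netrin receptors and roundabout receptors that bind them. They were taken by gene symbol from the array's annotation, and 70 of 19775 genes with a symbol of their own matched, 37 ligands and 33 receptors. Each gene was represented by the probe set with the highest mean over all arrays. Of the 70 genes, 46 reached the signal level of 4.12 that a gene needed to be tested, as did 11865 of all genes. Transcripts were measured in SH-SY5Y, a cultured human neuroblastoma line of sympathetic neuronal character, on 4 Affymetrix arrays. In the siLSD1 group, 2 cultures had been transfected with a small interfering RNA (siRNA) against LSD1, the histone lysine demethylase encoded by KDM1A. In the siControl group, 2 cultures of the same line had received a control siRNA. The design text describes separate transfections, so a p-value here reflects only how transfections of 1 line vary, and a knockdown leaves part of the target's transcript in place.

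Guidance cues steer growing axons and migrating neural crest cells, the cells from which sympathetic neurons and neuroblastoma arise. Semaphorins act through plexins, with neuropilins as binding partners for the secreted class, and mostly repel. Ephrins stay on the membrane of one cell and bind Eph receptor tyrosine kinases on the next. Netrins attract through DCC and repel through UNC5 receptors, and slits repel through roundabout (ROBO) receptors. LSD1 is known as a subunit of corepressor complexes that remove methyl groups from histone H3.

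KDM1A had log2 signals of 8.40 and 8.54 on the siLSD1 arrays, against 9.79 and 9.78 on the siControl arrays. The siLSD1 level was thus 40.04% of the control level by the means, and the groups did not overlap, although limma's adjusted p over all genes was 0.39. All levels below are log2 signals after quantile normalization, each from 1 probe set, so that they are compared between arrays and not between genes. All differences are siLSD1 minus siControl on that scale. In bulk RNA, fewer cells of a type and less RNA per cell cannot be told apart.

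The arrays were not equally alike. The array siControl replicate 1 had a mean correlation of 0.958 with the other arrays over the tested genes, against 0.972 to 0.973 for the other arrays. It held the lowest value of the series in 18 of the 46 tested guidance genes (39.1%), against 3181 of all 11865 tested genes (26.8%). It held the highest value in 14 of the 46 and in 4649 of the 11865. Over all tested genes it was thus more often highest than lowest, but among the guidance genes more often lowest than highest. The array siLSD1 replicate 2 had a signal of 10.45 on the probe set for 18S ribosomal RNA, against 5.21 to 6.02 on the others, and a 3′ minus 5′ difference for beta-actin of 1.16, against 0.54 to 0.71. Of 11 markers of sympathetic neuroblastoma cells with a probe set, 10 lay above the filter level. TH, tyrosine hydroxylase, was the exception, while DBH, PHOX2A and GATA3 were above it. None of 3 Schwann and glial markers, 1 of 5 endothelial markers (PECAM1) and 1 of 4 blood markers (HBB) lay above it. All 5 fibroblast markers did, with a summed level of 9.62 to 9.83 in siLSD1 and 9.16 to 9.71 in siControl cells. The summed levels in siLSD1 and siControl cells were 5.03 to 5.44 and 5.55 to 5.76 for the endothelial list, and 5.39 to 5.66 and 5.07 to 5.12 for the blood list. Those of the glial list were 3.42 to 3.55 and 3.18 to 3.25. Their part in the differences described here was not tested.

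No guidance gene passed the test over all genes. In limma 0 of 46 had an adjusted p under 0.05, as had 0 of 11865 genes (0%), and the smallest adjusted p among the guidance genes was 0.9996. Without adjustment, 4 of the 46 (8.70%) had a limma p under 0.05, against 3.45% of all tested genes. All 4 had higher means in siLSD1 cells, namely EFNA1, SEMA3C, UNC5D and UNC5B. That count depended on the setting. With no filter it was 2 of 70 (2.86%), below the 3.85% of all genes. It was 7 without siControl replicate 1, 11 without siControl replicate 2, and 2 without siLSD1 replicate 1 or without siLSD1 replicate 2, where the shares of all tested genes were 4.81%, 14.8%, 2.55% and 1.85%. Groups did not overlap in 17 of the 46 (37.0%), against 31.7% of all tested genes. In 11 of the 46 the siLSD1 arrays were the higher pair, against 16.6% of all tested genes. In 6 of the 46 they were the lower pair, against 15.1%. The mean was higher in siLSD1 cells for 30 of the 46 (65.2%), against 51.3% of all tested genes. It was lower for 16 of the 46, against 48.7%. The median difference was 0.14, against 0.01 over all tested genes. Under median centring, which raises the median of all tested genes to 0.18, the split was 37 higher and 9 lower and the median 0.26. The split narrowed to 25 higher and 21 lower without siControl replicate 2, and to 27 and 19 without siLSD1 replicate 2. There the medians of all tested genes were -0.05 and -0.02. It was 30 and 16 without siControl replicate 1, and 32 and 14 without siLSD1 replicate 1. Over all 70 genes, untested ones included, 43 were higher and 27 lower, against 10019 and 9756 of all 19775 genes. The counts are a description of these arrays, and the 95% interval of a difference had a median half-width of 0.58 over all tested genes.

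**Figure D1:**
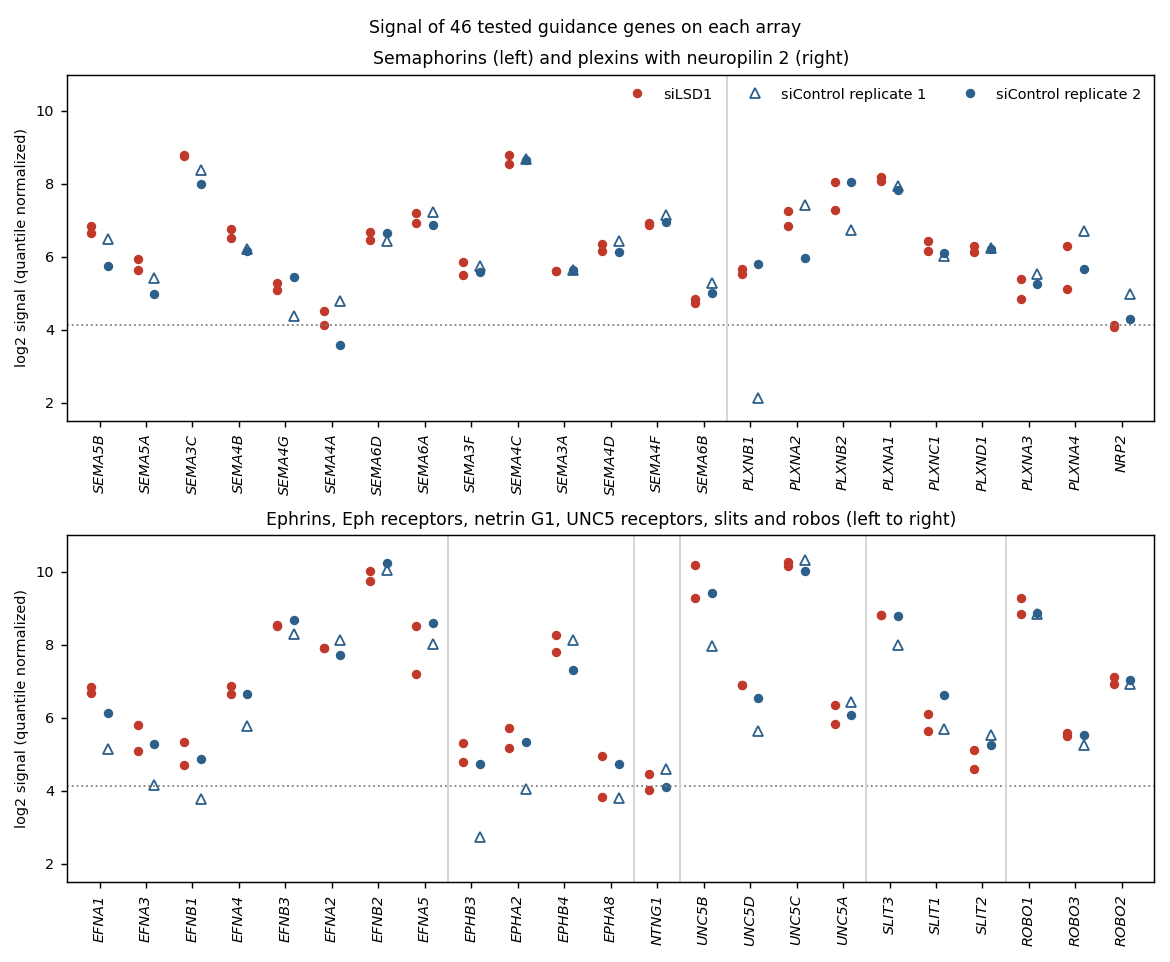
Log2 signal (vertical axis, quantile normalized) of the 46 tested guidance genes on each of the 4 arrays, with siLSD1 left of siControl for each gene and siControl replicate 1 as open triangles. The dotted line is the filter level of 4.12, and siControl replicate 1 is the lowest array in 18 genes, among them PLXNB1 at 2.14 and EPHB3 at 2.72.

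A difference of at least 1.5-fold was found in 10 of the 46 tested genes (21.7%), against 7.71% of all tested genes. All 10 were higher in siLSD1 cells, while 2.41% of all tested genes were lower by that much. These shares are not matched for signal. With a filter at the 60th percentile 19 of the 46 guidance genes remained, against 7910 of 11865 genes, so a smaller part of the guidance genes had a bright signal. Among the 10, PLXNB1 and EPHB3 had control means of 3.97 and 3.72, below the filter level, so that only their siLSD1 means reached it. Their signals were 2.14 and 2.72 on siControl replicate 1, but 5.80 and 4.72 on siControl replicate 2, above the level. Over all 70 guidance genes, 23 differed by at least 1.5-fold (32.9%), 17 of them higher and 6 lower in siLSD1 cells, against 26.2% of all 19775 genes. All 6 lower ones lay below the filter level, namely EPHB1, SEMA3D, NTN3, EPHA1, NTN1 and EPHA3, so the single direction among tested genes did not extend to the whole set. In 8 of the 10 the lowest value was on siControl replicate 1, as it was for 82.8% of the 629 tested genes that were at least 1.5-fold higher (5.3% of those tested). Without that array 3 of the 10 remained at least 1.5-fold higher, EFNA1, SEMA5A and SEMA5B, a share of 30.0% against 29.6% over all such genes. Of these 3 only EFNA1 had its lowest value on siControl replicate 1. In SEMA5A and SEMA5B siControl replicate 2 was lowest, as in 108 of the 629 genes, so leaving out siControl replicate 1 could only raise the difference. Without siControl replicate 2 both were less than 1.5-fold higher, at 0.38 for SEMA5A and 0.25 for SEMA5B.

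Among the ligands of plexins, 14 of 20 semaphorins were tested. SEMA3C, a secreted semaphorin that guides neural crest cells, had signals of 8.78 and 8.75 in siLSD1 cells, against 8.38 and 8.004 in siControl cells. Both siLSD1 arrays lay above both controls, a 1.49-fold difference (0.57, 95% interval 0.10 to 1.05, limma unadjusted p = 0.0237). It was at least 0.38 without any 1 array. SEMA3C, SEMA4B and PLXNA1 were the only tested guidance genes whose difference kept its direction and moved by less than 1.5 times whichever array was left out. The second SEMA3C probe set above the filter level did not show the difference, with 5.94 and 5.33 in siLSD1 and 6.18 and 5.55 in siControl cells.

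The transmembrane semaphorins with thrombospondin repeats were also higher by their brightest probe sets. SEMA5B had signals of 6.84 and 6.64 in siLSD1 cells, against 6.49 and 5.74 in siControl cells, a difference of 0.62 (unadjusted p = 0.084 in limma). SEMA5A had 5.65 and 5.95 in siLSD1 cells, against 5.42 and 4.98 in siControl cells, a difference of 0.60. In both genes siControl replicate 2 was the lowest array. The differences grew to 1.001 for SEMA5B and 0.82 for SEMA5A without siControl replicate 1, and SEMA5B fell to 0.25 without siControl replicate 2. The other probe sets of SEMA5A above the filter level gave differences of -0.65 and -0.28. SEMA3A, the secreted repellent for which the class is best known, had 5.62 and 5.60 in siLSD1 cells, against 5.63 and 5.64 in siControl cells. Its groups did not overlap, yet the difference of -0.03 turned to 0.14 under median centring, and its 95% interval ran from -0.70 to 0.64.

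The other 10 tested semaphorins had differences from -0.35 (SEMA6B) to 0.46 (SEMA4B). SEMA4B had 6.77 and 6.53 in siLSD1 cells, against 6.21 and 6.17 in siControl cells. SEMA6A, a transmembrane ligand of A-type plexins, was chosen for a closer description after its values were seen. Its brightest probe set gave 0.01, with 7.20 and 6.92 in siLSD1 and 7.22 and 6.88 in siControl cells. Its other 3 probe sets above the filter level gave 0.31, 0.70 and 1.64, each with both siLSD1 arrays above both controls. The last of these had 7.06 and 6.33 in siLSD1 cells, against 3.80 and 6.31 in siControl cells, with siControl replicate 1 far below the rest.

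Of 11 semaphorin receptors, 9 were tested, 5 with a higher and 4 with a lower mean in siLSD1 cells. PLXNB1, the plexin that binds SEMA4D, had the widest spread between its control arrays. Its signals were 5.67 and 5.54 in siLSD1 cells, against 2.14 and 5.80 in siControl cells, so that the groups overlapped. The other PLXNB1 probe set is given here although it lay below the filter level. It went the other way, at -2.63, with 2.17 and 1.12 in siLSD1 cells, against 4.78 and 3.77 in siControl cells. By the brightest probe sets, the PLXNB1 difference of 1.63 was the highest of all guidance genes, with a 95% interval from -0.59 to 3.86. It was -0.20 without siControl replicate 1 and 3.46 without siControl replicate 2, where limma called it (adjusted p = 0.0447) on the assumption that the lone control varies like the other arrays.

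PLXNA1, a signalling partner of neuropilins, had 8.07 and 8.19 in siLSD1 cells, against 7.95 and 7.82 in siControl cells. The difference was small (0.24, unadjusted p = 0.27 in limma) and stayed between 0.18 and 0.31 when any 1 array was left out. A second PLXNA1 probe set gave -0.06. NRP2, the neuropilin that binds SEMA3F, was lower by its brightest probe set, with 4.08 and 4.13 in siLSD1 cells, against 4.98 and 4.29 in siControl cells. The siLSD1 mean of 4.10 lay just below the filter level, so that only the siControl mean of 4.64 reached it. The difference of -0.53 was -0.19 without siControl replicate 1. The only other of the 11 NRP2 probe sets above the level gave -0.0064. The other 6 tested plexins had differences from -0.48 (PLXNA4) to 0.35 (PLXNA2). The 2 PLXNA4 probe sets above the level gave differences of opposite sign, the second being 0.70.

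**Figure D2:**
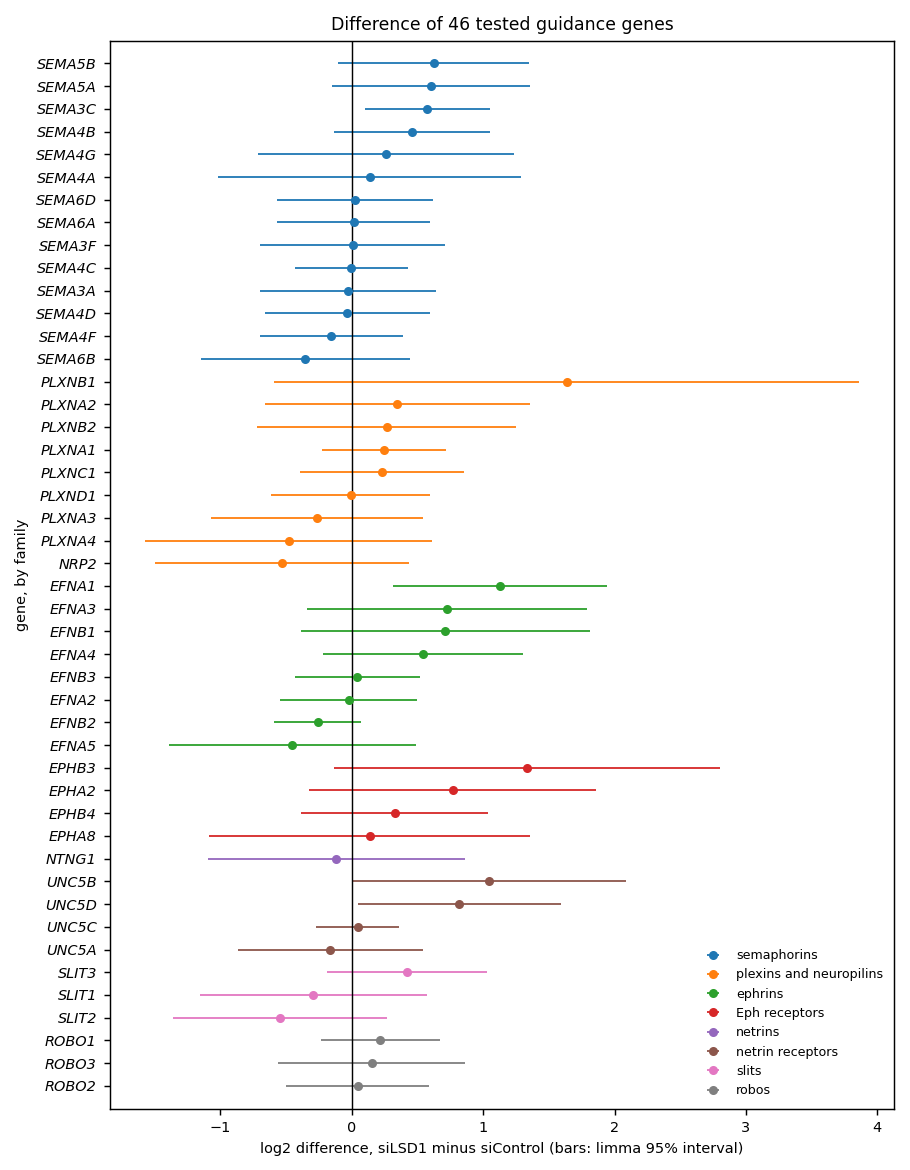
Log2 difference, siLSD1 minus siControl (horizontal axis), for the 46 tested guidance genes grouped by family, with limma's 95% interval as bars. The interval lies above 0 for SEMA3C, EFNA1, UNC5D and UNC5B and below 0 for none, before any adjustment over genes.

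All 8 ephrins were tested, 5 with a higher and 3 with a lower mean in siLSD1 cells. EFNA1, a ligand of EphA receptors that a lipid anchor holds on the membrane, had signals of 6.84 and 6.69 in siLSD1 cells, against 5.15 and 6.12 in siControl cells. Means were 6.77 ± 0.11 and 5.64 ± 0.68 (SD, 2 arrays each), a 2.19-fold difference (1.13, 95% interval 0.31 to 1.95). Its unadjusted p of 0.0128 in limma was the smallest of the guidance genes. Both siLSD1 arrays lay above both controls, and the difference was 0.64 without siControl replicate 1 and 1.61 without siControl replicate 2. No other probe set named EFNA1 alone.

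EFNA4 and EFNA3 are the genes next to EFNA1 on chromosome 1, in that order, apart from a readthrough record that joins them. EFNA4 had 6.64 and 6.86 in siLSD1 cells, against 5.78 and 6.64 in siControl cells, and the groups were separated by 0.0021. Its difference was 0.54, or 0.11 without siControl replicate 1. EFNA3, described here because of its position and after its values were seen, had 5.79 and 5.08 in siLSD1 cells, against 4.15 and 5.27 in siControl cells. Its groups overlapped, and the difference of 0.72 was 0.16 without siControl replicate 1. On all 3 genes siControl replicate 1 was the lowest array. The next protein-coding genes were ADAM15 before EFNA4, at -0.76 with siLSD1 the lower pair, and SLC50A1 after EFNA1, at -0.29. Beyond SLC50A1 lay DPM3 at 1.07, KRTCAP2 at 0.11 and TRIM46 at 0.12, all with overlapping groups, so that neighbours outside the ephrins differed in either direction.

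The promoters of these neighbours are shown because the genes differed in the same direction. Each is the 250 bases before the RefSeq start site in GRCh38.p14, on the plus strand, at chr1:155063490-155063739 for EFNA4, chr1:155078587-155078836 for EFNA3 and chr1:155127626-155127875 for EFNA1. Capitals mark GGGCGG or its complement CCGCCC, the core of the GC box bound by Sp1-type factors.
EFNA4: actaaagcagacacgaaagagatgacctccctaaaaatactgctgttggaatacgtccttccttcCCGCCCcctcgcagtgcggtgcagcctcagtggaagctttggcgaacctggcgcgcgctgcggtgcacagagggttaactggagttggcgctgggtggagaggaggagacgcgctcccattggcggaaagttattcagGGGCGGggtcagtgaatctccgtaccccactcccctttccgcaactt
EFNA3: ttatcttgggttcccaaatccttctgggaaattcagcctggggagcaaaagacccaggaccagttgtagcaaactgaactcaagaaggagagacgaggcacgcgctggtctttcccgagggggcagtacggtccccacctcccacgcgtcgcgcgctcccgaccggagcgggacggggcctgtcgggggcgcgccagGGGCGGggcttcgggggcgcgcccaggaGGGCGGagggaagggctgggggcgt
EFNA1: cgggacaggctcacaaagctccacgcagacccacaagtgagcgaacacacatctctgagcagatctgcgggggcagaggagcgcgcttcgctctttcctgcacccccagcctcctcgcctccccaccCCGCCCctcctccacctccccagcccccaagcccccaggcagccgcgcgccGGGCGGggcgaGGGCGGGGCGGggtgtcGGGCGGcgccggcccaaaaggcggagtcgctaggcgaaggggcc
The motif occurred 5 times in the EFNA1 window and 2 times each in those of EFNA4 and EFNA3, with G and C making up 73.2%, 58.4% and 67.6% of the bases. On either strand it was present in 69.6% of 92 windows of 59 guidance genes found in the promoter table, against 42.6% of 35116 windows of all genes. The guidance windows were also richer in G and C, with a median of 64.8% against 58.0%. The letters CAGGTG or CACCTG, an E-box that the LSD1 partner SNAI1 can bind, were in none of these 3 windows, and so shared no base with the other motif. They were in 14.1% of the guidance windows and 17.5% of all windows. These matches describe letters in a window and are not evidence of binding.

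EFNB2, a transmembrane ephrin that binds EPHB4, was lower by its brightest probe set. It had 10.02 and 9.76 in siLSD1 cells, against 10.06 and 10.24 in siControl cells, a difference of -0.26 (unadjusted p = 0.108 in limma). The groups did not overlap, but the second probe set gave 0.49, with 8.66 and 8.04 in siLSD1 and 7.33 and 8.39 in siControl cells. The other 4 ephrins had differences from -0.45 (EFNA5) to 0.71 (EFNB1). In EFNB1 siControl replicate 1 was again the lowest array, and the difference was 0.16 without it.

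Of 13 Eph receptors, 4 were tested, all with a higher mean in siLSD1 cells and 3 of them with siControl replicate 1 lowest. EPHB3, a receptor of B-type ephrins, had 5.31 and 4.80 in siLSD1 cells, against 2.72 and 4.72 in siControl cells. Both siLSD1 arrays lay above both controls, by 0.08 over the nearer one. The difference of 1.33, or 2.52-fold, had a 95% interval from -0.13 to 2.80 and was 0.33 without siControl replicate 1. EPHA2, a receptor of EFNA1, had 5.18 and 5.73 in siLSD1 cells, against 4.04 and 5.33 in siControl cells. These groups overlapped, and the difference of 0.77 was 0.12 without siControl replicate 1.

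EPHB4, the receptor of EFNB2, had 7.81 and 8.27 in siLSD1 cells, against 8.12 and 7.31 in siControl cells. The groups overlapped, and the difference of 0.33 turned to -0.08 without siControl replicate 2. A second EPHB4 probe set had 5.93 and 6.20 in siLSD1 cells, against 4.99 and 5.74 in siControl cells, with the siLSD1 pair higher. The remaining tested receptor, EPHA8, was at 0.14 with overlapping groups.

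**Figure D3:**
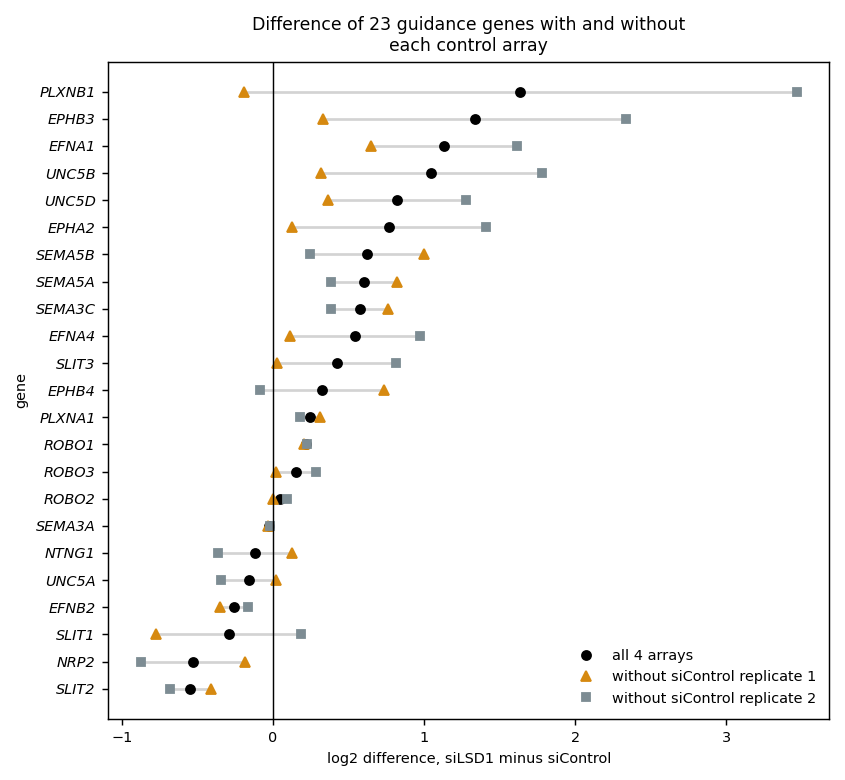
Log2 difference, siLSD1 minus siControl (horizontal axis), of the 23 guidance genes described by rule, with all 4 arrays (circles), without siControl replicate 1 (triangles) and without siControl replicate 2 (squares). PLXNB1 spans -0.20 to 3.46. It changes direction when a control array is left out, as do EPHB4, NTNG1, ROBO2, SLIT1 and UNC5A. The other genes, SEMA3C, PLXNA1 and SLIT2 among them, keep their direction in all 3 settings.

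Only 1 of 6 netrins was tested. NTNG1, a lipid-anchored netrin that binds a synaptic adhesion molecule and not DCC, had 4.47 and 4.01 in siLSD1 cells, against 4.61 and 4.11 in siControl cells. The groups overlapped and the difference of -0.12 turned to 0.13 without siControl replicate 1. NTN1, the founding attractant, lay just below the filter level, with a mean of 4.10, and was not tested. It had 4.34 and 2.99 in siLSD1 cells, against 4.70 and 4.36 in siControl cells. SEMA4A, with a mean of 4.25, was the guidance gene just above the level.

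Of 5 netrin receptors, 4 were tested. UNC5B, which mediates repulsion by netrin 1 and can signal cell death when unbound, had 9.29 and 10.20 in siLSD1 cells, against 7.96 and 9.43 in siControl cells. The groups overlapped, since siLSD1 replicate 1 lay below siControl replicate 2. The difference of 1.05 had a 95% interval from 0.01 to 2.09 and was 0.31 without siControl replicate 1. A second probe set gave 0.64 with the siLSD1 pair higher (7.83 and 8.32, against 7.37 and 7.51 in siControl cells). The remaining probe set above the level gave -0.03.

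UNC5D, another receptor of the same family, had 6.91 and 6.90 in siLSD1 cells, against 5.63 and 6.54 in siControl cells. The siLSD1 arrays agreed closely and lay above both controls. The difference of 0.82, or 1.76-fold, had an unadjusted p of 0.0399 in limma and was 0.36 without siControl replicate 1. UNC5A had 5.84 and 6.36 in siLSD1 cells, against 6.44 and 6.08 in siControl cells, and its difference of -0.16 turned to 0.04 under median centring. UNC5C, the remaining tested receptor and outside the rule for named genes, had 10.17 and 10.28 in siLSD1 cells, against 10.33 and 10.03 in siControl cells, at 0.05. Its other probe sets above the level gave 0.21 and -0.31. DCC, the attractive receptor, was not tested, as its brightest probe set had 3.43 and 3.92 in siLSD1 and 4.12 and 3.30 in siControl cells.

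All 3 slits were tested, and they did not go one way. SLIT2 had 5.10 and 4.59 in siLSD1 cells, against 5.53 and 5.26 in siControl cells. Its difference of -0.55 (unadjusted p = 0.161 in limma) was the lowest of the tested guidance genes. Its second probe set was lower as well, with 4.74 and 4.71 in siLSD1 cells, against 5.13 and 4.95 in siControl cells. In both probe sets the groups did not overlap, and the difference lay between -0.80 and -0.29 for the brighter one when any 1 array was left out.

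SLIT3 had 8.81 and 8.83 in siLSD1 cells, against 8.003 and 8.80 in siControl cells. The siLSD1 arrays exceeded the nearer control by 0.02, and the difference of 0.42 was 0.02 without siControl replicate 1. A second SLIT3 probe set had 7.77 and 7.91 in siLSD1 cells, against 7.73 and 7.51 in siControl cells, with the siLSD1 pair higher, and the last one gave -0.02. SLIT1 had 6.09 and 5.63 in siLSD1 cells, against 5.68 and 6.64 in siControl cells. These groups overlapped, and the difference of -0.29 turned to 0.19 without siControl replicate 2.

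Of the 4 roundabout receptors, 3 were tested and the groups overlapped in each. ROBO1 had 8.85 and 9.28 in siLSD1 cells, against 8.84 and 8.86 in siControl cells. Its difference of 0.22 rested on siLSD1 replicate 2, the array with the strong 18S signal, and was -0.0033 without it. ROBO2 had 6.93 and 7.12 in siLSD1 cells, against 6.93 and 7.03 in siControl cells, at 0.04, and -0.05 without siLSD1 replicate 2. Its other probe sets above the filter level gave 0.07 and 0.31, with overlapping groups. ROBO3, which regulates midline crossing, had 5.59 and 5.49 in siLSD1 cells, against 5.26 and 5.52 in siControl cells, at 0.15. The 95% intervals ran from -0.24 to 0.67, -0.50 to 0.59 and -0.56 to 0.86 in that order.

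The 24 guidance genes below the filter level were SEMA3B, SEMA3D, SEMA3E, SEMA3G, SEMA6C, SEMA7A, NRP1, PLXNB3, EPHA1, EPHA3, EPHA4, EPHA5, EPHA6, EPHA7, EPHA10, EPHB1, EPHB6, NTN1, NTN3, NTN4, NTN5, NTNG2, DCC and ROBO4. Groups did not overlap in 8 of them (33.3%), close to the 34.0% of all 7910 genes below the level. NRP1, the binding receptor for SEMA3A, had 3.50 and 3.81 in siLSD1 cells, against 2.58 and 2.54 in siControl cells. EPHB1 had 0.25 and 1.17 in siLSD1 cells, against 2.68 and 2.66 in siControl cells. Both were picked here after their values were seen, and signals this low limit how far such differences can be measured. With all genes fitted and no filter, limma's adjusted p was at least 0.990 for every guidance gene.

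Probe sets of the same gene often disagreed. Of the 46 tested genes, 22 had at least 1 further probe set above the filter level, 32 probe sets in all, and 21 of the 32 had the same direction as the brightest one. SLIT2, SEMA4F, PLXNA2, PLXNA3, PLXNC1 and EPHB4 were among the genes without a contrary probe set above the filter level. SEMA3C, SEMA5A, EFNB2 and PLXNA4 had at least 1 of opposite direction.

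**Figure D4:**
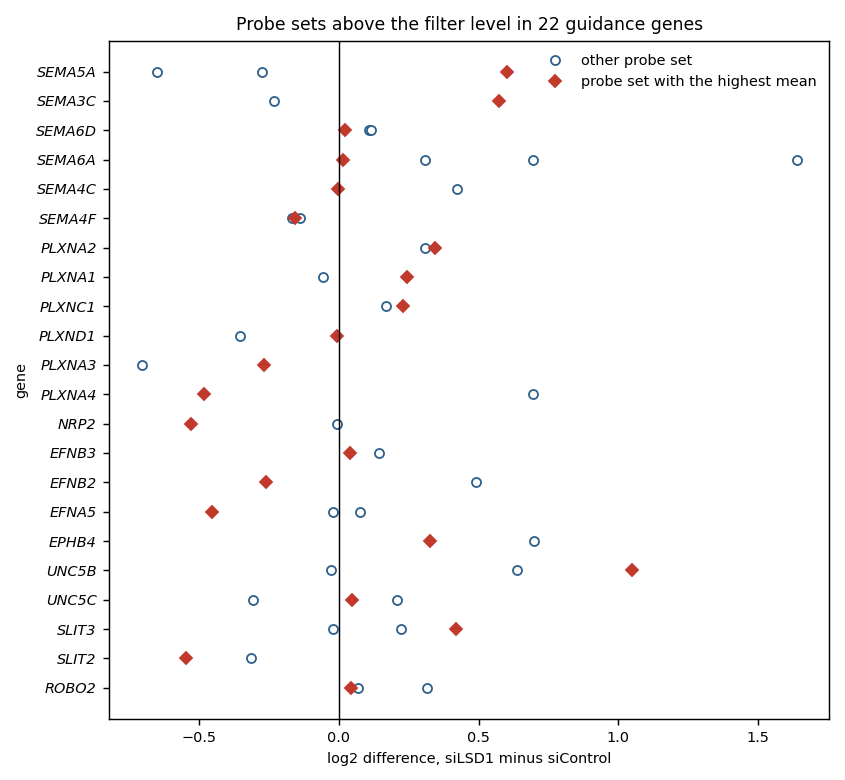
Log2 difference, siLSD1 minus siControl (horizontal axis), of every probe set above the filter level in the 22 tested guidance genes with more than 1 such probe set. Diamonds are the brightest probe set of a gene and open circles the others, and 21 of the 32 open circles lie on the same side of 0 as their diamond.

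Genes that act with or downstream of the guidance receptors were read from a separate list of 74, of which 67 had a probe set and 58 were tested. None passed limma's adjusted threshold. At an unadjusted p under 0.05 there was 1 (1.72%), against 3.45% of all tested genes. The mean was higher in siLSD1 cells for 39 and lower for 19, a share of 67.2% against 51.3% of all tested genes. The median was 0.05, against 0.01 over all tested genes. It turned to -0.08 when all probe sets of a gene were averaged, against -0.0051 over all tested genes. Without siControl replicate 2 it was -0.03, where the median of all tested genes was -0.05. Leaving out siControl replicate 1 gave 0.13, and leaving out siLSD1 replicate 1 gave 0.12, against 0.04 and 0.05 over all tested genes. Groups did not overlap in 16 of 58 (27.6%), 12 higher and 4 lower, against 31.7% of all tested genes, 16.6% higher and 15.1% lower. SRGAP1, a protein that binds ROBO receptors, had 8.17 and 8.09 in siLSD1 cells, against 6.87 and 7.55 in siControl cells. Both siLSD1 arrays lay above both controls (0.92, unadjusted p = 0.00913 and adjusted p = 0.9996 in limma), and the difference was 0.58 without siControl replicate 1.

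The other listed genes with the smallest p among the higher ones were the actin-severing protein CFL1 (0.19), the receptor kinase ERBB2 (0.54) and the actin regulator EVL (0.30). Among the lower ones they were CDK5, a neuronal kinase (-0.33), ARHGAP39, a GTPase-activating protein whose fly counterpart binds Robo (-0.46), the adhesion molecule CNTN1 (-0.22) and FLRT3, a membrane protein that binds UNC5 receptors (-0.22). CDK5 had 9.07 and 9.13 in siLSD1 cells, against 9.37 and 9.49 in siControl cells, with both siLSD1 arrays below both controls. None of these 7 reached an unadjusted p under 0.05 in limma.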

How the data were processed

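The deposited values were 1 log2 signal per probe set for 54675 probe sets on each of 4 arrays. Per the labels' protocols, column-purified total RNA carried a biotin label, and it was hybridized to Affymetrix arrays as the manufacturer advises. The sources used here do not name the summary software. The log2 scale was found from the values, since powers of 2 of them averaged 100.0 on every array once the lowest and highest 2% were left out. Array medians of the deposited values differed by up to 0.27, so arrays were quantile normalized, which would remove a difference in overall signal. Probe sets were named through the platform annotation of 2016. All 70 guidance symbols matched RefSeq names through their Entrez identifiers. Genes with a mean below the 40th percentile (4.12) were left out.

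Groups and replicate numbers came from sample titles. The comparison used limma 3.58.1 in R 4.3.3 (lmFit, eBayes with a mean-variance trend, two-sided, no replicate term, 8.22 degrees of freedom), with Benjamini-Hochberg adjustment over 11865 genes. With 2 arrays a group, the smallest p of an exact permutation test is 0.333. The fit was tested on simulated data. Precision is limited by how many arrays there are.

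The guidance genes, the list of 74 effectors and the marker lists were chosen with earlier results of these data known. The genes described were KDM1A and, per family, the 3 tested genes with the smallest p, tested genes at least 1.5-fold apart without overlap, and a list of founding ligands and receptors that passed the filter. Of the effectors, those with the 4 smallest p in each direction were named. Other probe sets of a named gene are given where they lay above the filter level. Exceptions are stated where they occur.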

Additional observations from a re-analysis of the deposited data

How the results depend on the processing

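The median difference of the tested guidance genes was 0.14 and stayed above 0 in all settings run. The median of all tested genes moved as well and is given beside it. The guidance median was 0.0896 under the deposited scaling and 0.26 under median centring, against 0.0072 and 0.18 over all tested genes. It was 0.0456 with a filter at the 60th percentile and 0.21 with the mean of all probe sets, against -0.00035 and -0.0051. When 1 array was left out it ran from 0.10 to 0.15, against -0.05 to 0.05. The 0.10 was without siControl replicate 1, where the median of all tested genes was 0.04. With the 60th percentile 6 of 19 guidance genes had groups that did not overlap (31.6%, against 31.8% of all tested genes). That count was 28 to 39 of 46 with 1 array left out (60.9% to 84.8%, against 56.7% to 76.9% of all tested genes), where 3 arrays separate more easily by construction. The median of the effector list was 0.22 under median centring, against 0.18 over all tested genes. It was -0.0781 with the mean of all probe sets, against -0.0051, and ran from -0.03 to 0.13 with 1 array left out. In limma the number of genes called among all genes was 13 with the replicate number as a block, among them KDM1A (adjusted p = 0.0194) and UNC5B (adjusted p = 0.0467), and 0 to 83 when 1 array was left out, with 83 without siControl replicate 2 and 1 without siLSD1 replicate 1. Same-numbered arrays deviated together with a correlation of 0.05 across genes, so the numbers are not known to pair the transfections, and no design text pairs them.

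Some differences that did not pass the test changed direction, and the cause was not tested. Median centring turned SEMA3A to 0.14 and UNC5A to 0.0361. The mean of all probe sets turned EFNB2 to 0.12, PLXNB1 to -0.50, SEMA5A to -0.11 and UNC5A to 0.32. Single other probe sets gave 0.49 for EFNB2, -0.0566 for PLXNA1, -0.23 for SEMA3C, -0.65 and -0.28 for SEMA5A, -0.0228 for SLIT3 and -0.0282 for UNC5B. With 1 array left out, the range was -0.37 to 0.13 for NTNG1, -0.20 to 3.46 for PLXNB1, -0.0489 to 0.14 for ROBO2, -0.42 to 0.10 for UNC5A, -0.0837 to 0.73 for EPHB4, -0.77 to 0.19 for SLIT1 and -0.0033 to 0.43 for ROBO1. Of the 46 tested guidance genes, 22 kept their direction without each array in turn.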
